A study of Homo sapiens with 6 samples.

Results

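Genes that write, maintain, erase or read cytosine methylation were followed in KMS11 cells, an established human line derived from multiple myeloma, the malignancy of plasma cells. They were chosen by symbol as DNMT1, DNMT3A, DNMT3B, UHRF1, UHRF2, TET1, TET2, TET3 and MBD2, and all 9 were found among the 17918 genes of the table. RNA sequencing covered 3 libraries labelled as KMS11 cells with a short hairpin RNA (shRNA) against CRIP1, a gene of a small LIM domain protein, and 3 libraries of KMS11 cells with a scrambled hairpin, which the labels call wild type. Both groups carried a hairpin, both grew in RPMI medium with fetal bovine serum, and neither received a further treatment. The labels name 1 hairpin target and 1 cell line. They do not say whether each group was a pool or a clone, or whether its 3 replicates were cultured apart. The p-values therefore cover only the spread between these libraries, and that spread may be technical.

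In mammals DNA methylation lies mostly on cytosines followed by guanine, called CpG sites. DNMT3A and DNMT3B place new marks, while DNMT1 copies marks onto the new strand after replication, brought there by UHRF1, which binds hemimethylated DNA. The TET dioxygenases oxidise methylcytosine using 2-oxoglutarate, which opens a way to removal, and MBD2 reads methylated DNA for the NuRD repressor complex. DNMT3A and TET2 are known in blood cells as genes whose loss of function gives clonal growth.

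The 4 promoter windows printed here belong to DNMT3A, DNMT3B and UHRF1, whose values differed between the groups, and those of DNMT3A lie at separate starts of a gene whose implied transcript length also differed. Each window holds the 250 bases before a RefSeq transcript start (GRCh38.p14), 5′ to 3′ on the gene's strand, with CpG sites in capitals. RefSeq listed 6 starts for DNMT3A, 3 in an upstream group and 3 in an internal group, and the nearest starts of these groups were 89.6 kb apart. From each group the window richest in CpG is shown, with 33 CpG sites upstream and 25 at the internal start. RefSeq listed 3 starts for UHRF1, with 28, 32 and 41 CpG sites, and the window with 28 is shown because it alone held the E2F motif searched. The single DNMT3B start listed, at 32779852, lies inside the gene span given further on, which begins at 32762385 on the plus strand. Its window held 3 CpG sites, against a median of 11 over 35116 windows of all genes. No window covered the beginning of that span, so the count does not describe a promoter there.
DNMT3A upstream, chr2:25341926-25342175, minus strand: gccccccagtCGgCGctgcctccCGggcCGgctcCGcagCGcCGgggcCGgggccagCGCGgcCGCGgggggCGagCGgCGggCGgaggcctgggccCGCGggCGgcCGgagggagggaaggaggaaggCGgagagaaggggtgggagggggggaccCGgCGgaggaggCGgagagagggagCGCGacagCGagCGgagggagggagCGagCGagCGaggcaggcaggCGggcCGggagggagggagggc
DNMT3A internal, chr2:25252316-25252565, minus strand: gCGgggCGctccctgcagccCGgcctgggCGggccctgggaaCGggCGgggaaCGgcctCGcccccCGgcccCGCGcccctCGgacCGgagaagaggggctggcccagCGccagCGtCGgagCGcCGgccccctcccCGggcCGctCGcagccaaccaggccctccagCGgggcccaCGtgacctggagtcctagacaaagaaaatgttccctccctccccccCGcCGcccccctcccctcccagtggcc
DNMT3B, chr20:32779602-32779851, plus strand: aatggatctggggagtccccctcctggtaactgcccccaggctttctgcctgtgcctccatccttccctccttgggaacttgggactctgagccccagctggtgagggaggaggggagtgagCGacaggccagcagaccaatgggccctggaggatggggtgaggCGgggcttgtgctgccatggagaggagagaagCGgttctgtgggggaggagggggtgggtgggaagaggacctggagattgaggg
UHRF1, chr19:4909251-4909500, plus strand: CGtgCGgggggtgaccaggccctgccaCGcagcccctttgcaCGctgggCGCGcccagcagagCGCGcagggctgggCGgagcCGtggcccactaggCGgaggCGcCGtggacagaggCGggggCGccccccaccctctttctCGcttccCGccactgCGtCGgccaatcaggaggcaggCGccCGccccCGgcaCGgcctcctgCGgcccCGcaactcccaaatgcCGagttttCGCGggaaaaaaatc
The E2F motif, searched as TTTCCCGC or TTTGGCGC on both strands, was found in 1 of the 20 windows of the 9 genes. That match began 14 bases before the UHRF1 start shown, and the motif occurred in 1.93% of all windows.

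CRIP1 itself stood at 127.14, 128.79 and 134.23 TPM in the CRIP1 shRNA libraries, against 2790.89, 3326.68 and 3173.99 TPM in the scramble libraries. TPM is a transcript level corrected for gene length and for library depth. Library totals were 16971454 to 18005318 estimated counts. Of 12612 genes tested with edgeR's quasi-likelihood test, 77.6% were called at an adjusted p below 0.05, 39.4% higher and 38.1% lower after CRIP1 shRNA, so a call alone sets no gene apart here. The median log2 fold change of all genes was 0.01 in this fit, 0.12 on log2(TPM + 1) and -0.08 with the trend of fold change with GC content removed, and 50.8%, 61.4% and 43.1% of the called genes were higher in these fits. The libraries also differed in cell type markers. The summed level of 16 erythroid markers was 749.6 to 760.5 TPM after CRIP1 shRNA and 0.26 to 0.37 TPM in scramble, where 14 of the 16, all 7 globin genes and, named after its value was seen, GATA1 among them, were at 0 counts, and all 13 tested rose. The summed level of 12 plasma cell markers was 4071 to 4327 TPM after CRIP1 shRNA and 8790 to 9245 TPM in scramble, with none at 0. JCHAIN, which joins antibody chains, made up most of that gap, at 1789 ± 157.9 TPM after CRIP1 shRNA and 6443 ± 223 TPM in scramble (SD, n = 3 each), and the other 11 markers summed to 2358 to 2429 TPM after CRIP1 shRNA and 2589 to 2626 TPM in scramble. Of 11 plasma cell markers tested 8 fell, among them JCHAIN, MZB1 and PRDM1, and 3 rose. The risers, named after their values were seen, were TNFRSF17 (log2 fold change 0.30, SE 0.04), IRF4 (0.39, SE 0.03) and CD38 (0.51, SE 0.06). The sum of 8 T and NK cell markers, none of which passed the filter, was 1.96 to 2.82 TPM after CRIP1 shRNA, with CD3G, NKG7 and GNLY at 0, and 0.85 to 1.39 TPM in scramble, with CD3D and NKG7 at 0. The sum of 8 myeloid markers was 7.22 to 7.84 TPM after CRIP1 shRNA, with ELANE at 0, and 0.94 to 1.27 TPM in scramble, with ELANE and FCGR3A at 0, and 2 of 3 tested rose. The part of these marker differences in the results given here was not tested. Nor was it tested whether the cells of both groups were of one identity, as the labels have it, so every change given here is a difference between the libraries as labelled. In bulk RNA fewer cells of a type and less RNA per cell cannot be told apart.

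All 9 genes passed the filter on low counts, and 7 were called, 3 higher (UHRF1, TET2 and TET3) and 4 lower (DNMT1, DNMT3A, DNMT3B and MBD2). UHRF2 and TET1 did not pass the threshold. The median log2 fold change of the 9 genes was -0.09, beside 0.01 for all genes tested. Both de novo methyltransferases fell by at least 2-fold in this fit, as did 8.06% of all genes. DNMT3A was past that mark in all 17 alternative fits and DNMT3B fell short of it in 7, while it stayed called in each. TET3 rose by 1.52-fold and the other called genes changed by 1.22- to 1.26-fold. The TPM ranges of the groups did not overlap for the 7 called genes, as for 78.5% of all genes tested. The summed level of the 9 genes did overlap, at 405.5 to 409.4 TPM after CRIP1 shRNA and 400.9 to 415.01 TPM in scramble, so the makeup of the group differed with no separation in its total.

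**Figure D1:**
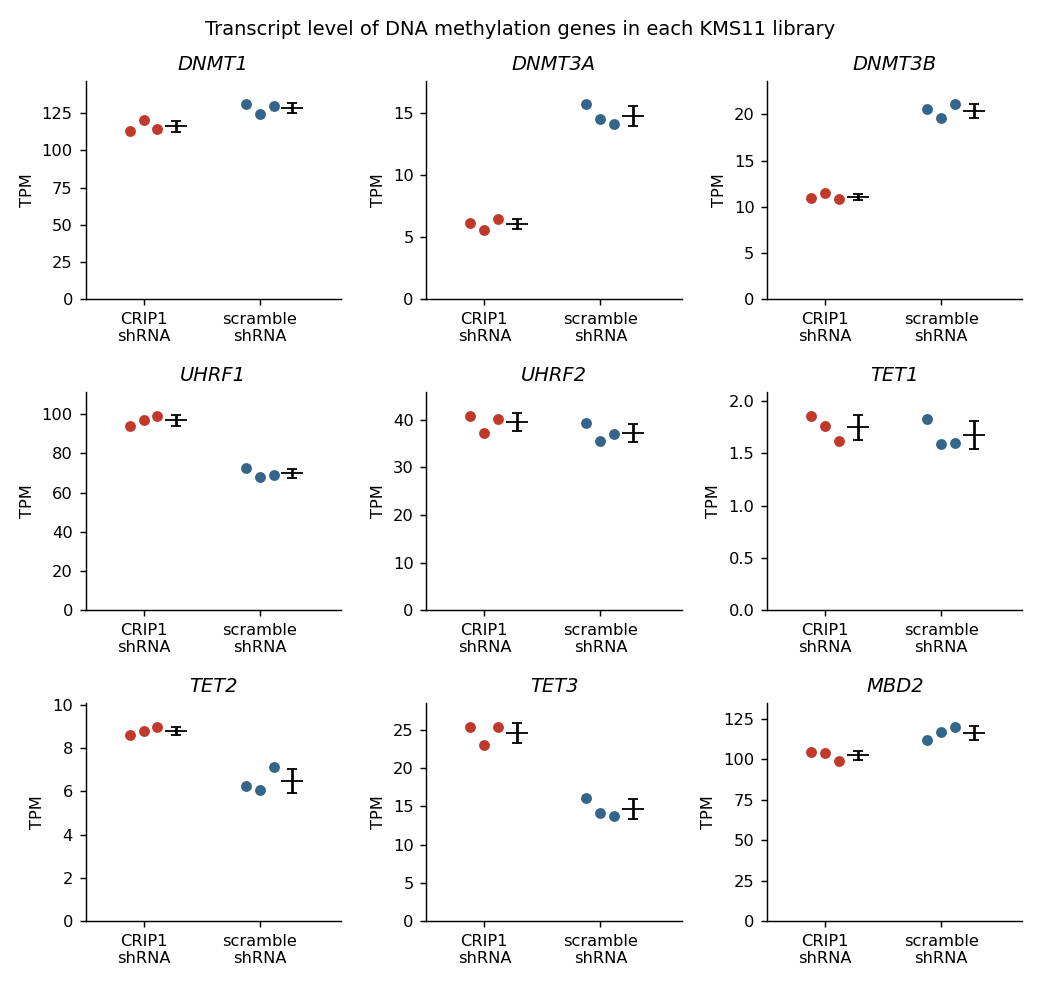
Transcript level in TPM (y axis) of each gene in the 3 CRIP1 shRNA libraries and the 3 scramble libraries, with one point per library and the mean ± SD beside the points. DNMT3A and DNMT3B are lower and TET3 and UHRF1 higher in all 3 CRIP1 shRNA libraries, while the points of UHRF2 and TET1 overlap.

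The de novo enzymes DNMT3A and DNMT3B showed the lowest values relative to scramble. DNMT3B (NCBI gene 1789, chromosome 20, 32762385 to 32809356, all gene spans from GENCODE 29 on GRCh38) had 10.96, 11.47 and 10.82 TPM after CRIP1 shRNA, against 20.56, 19.58 and 21.08 TPM in scramble. The 2 groups were far apart compared with their spread. Its fitted change was 2.02-fold lower (95% interval 1.86 to 2.19; log2 fold change -1.01, SE 0.06, edgeR adjusted p = 1.63e-12). DNMT3A (NCBI gene 1788, chromosome 2, 25227855 to 25342590) had 6.11, 5.60 and 6.44 TPM after CRIP1 shRNA, against 15.69, 14.53 and 14.13 TPM in scramble. All 3 CRIP1 shRNA values lay below the lowest scramble value. In estimated counts it had 346, 308 and 345 after CRIP1 shRNA and 693, 647 and 619 in scramble, a fitted change of 2.15-fold lower (interval 1.95 to 2.37; log2 fold change -1.10, SE 0.07, edgeR adjusted p = 7.29e-12). The 95% intervals of DNMT3A and DNMT3B overlapped. Exact two-sided permutation tests of the 6 TPM values gave p = 0.1 for each of the 7 called genes, the smallest that 3 against 3 allows.

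The TPM of DNMT3A differed more than its counts, to 40.9% of the scramble level, and the deposited values show where the scales part. Count and FPKM (fragments scaled by gene length and library depth) together imply an effective gene length, which in RSEM, a tool that the submitters' processing notes name, is an average over the gene's transcripts weighted by their estimated abundance. The implied length of DNMT3A was 5693, 5413 and 5493 bases after CRIP1 shRNA, against 4422, 4420 and 4453 bases in scramble. That is a ratio of 1.25 with no overlap, and the rounding of the FPKM values adds an error of at most 0.158% (exact two-sided permutation p = 0.1, the smallest possible). The same quantity was 3818 ± 45.9 and 3816 ± 24.0 bases for DNMT3B (SD, n = 3 each) in the CRIP1 shRNA and scramble libraries, a ratio of 1.00. Of 10139 genes with an FPKM of at least 1 in each library, 96 (0.947%) had implied lengths that differed by 1.2-fold or more with no overlap, and DNMT3A, singled out after its values were seen, was among them, while the other 7 eligible genes were not. TET1, with an FPKM below 1, could not be counted. UHRF2 had a ratio of 1.03, short of the 1.2-fold mark, at 3112 to 3224 bases after CRIP1 shRNA and 3061 to 3094 bases in scramble. These ranges did not overlap, but the share of all genes without overlap at any ratio was not counted. The lengths therefore do not set UHRF2 apart. The implied lengths of the other 7 overlapped between groups. GENCODE 29 lists protein-coding DNMT3A transcripts of 9501, 4279, 3589, 2300 and 1775 bases. The table has no values per transcript, so which transcripts or which of the printed start regions carried the difference was not measured.

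**Figure D2:**
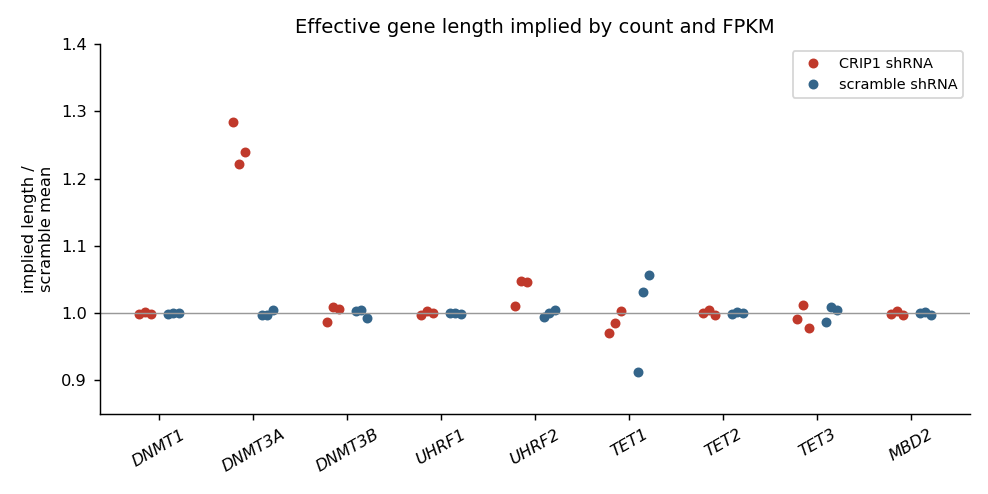
Effective gene length implied by count and FPKM in each library, divided by the scramble mean of the same gene (y axis), for the 9 genes (x axis), with one point per library. The 3 CRIP1 shRNA points of DNMT3A lie about a ratio of 1.25, those of UHRF2 lie about 1.03, and for the other 7 genes the points of the groups overlap, most widely for TET1.

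DNMT1, the maintenance methyltransferase and the most abundant of the 9 genes in both groups, fell slightly. DNMT1 (NCBI gene 1786, chromosome 19, 10133345 to 10231286) had 113.19, 120.63 and 114.53 TPM after CRIP1 shRNA, against 130.93, 124.73 and 129.72 TPM in scramble. The highest CRIP1 shRNA value, in replicate 2, lay just below the lowest scramble value. The change was 1.22-fold lower (interval 1.15 to 1.28; log2 fold change -0.28, SE 0.04, edgeR adjusted p = 6.45e-07). It was -0.14 on log2(TPM + 1), where the median of all genes was 0.12, and relative to that median its value lay between -0.34 and -0.22 in all 17 alternative fits.

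UHRF1, the factor that recruits DNMT1 to newly replicated DNA, went the other way. UHRF1 (NCBI gene 29128, chromosome 19, 4903080 to 4962154) had 94.06, 97.15 and 99.34 TPM after CRIP1 shRNA, against 72.47, 67.76 and 69.10 TPM in scramble. All 3 values after CRIP1 shRNA exceeded all 3 of scramble, a rise of 1.26-fold (interval 1.19 to 1.34; log2 fold change 0.34, SE 0.04, edgeR adjusted p = 1.26e-07). The ratio of UHRF1 to DNMT1 TPM was 0.835 ± 0.0312 after CRIP1 shRNA and 0.543 ± 0.0104 in scramble (SD, n = 3 each; exact two-sided permutation p = 0.1). UHRF2, the UHRF1 relative with a like domain order, had 40.91, 37.34 and 40.27 TPM after CRIP1 shRNA, against 39.30, 35.56 and 37.07 TPM in scramble. These values overlapped. Its log2 fold change was -0.00, with a 95% interval of -0.11 to 0.10 and an edgeR adjusted p of 0.938. With the GC trend removed UHRF2 was called lower, at -0.14, in a fit whose median over all genes was -0.08. With the GC curve centred it was not called, at -0.0890 (edgeR adjusted p = 0.0720). UHRF2 (NCBI gene 115426) lies on chromosome 9, 6413151 to 6507054. UHRF1 made up 71.0% ± 1.28 of the summed UHRF TPM after CRIP1 shRNA and 65.2% ± 0.379 in scramble (SD, n = 3 each), without overlap.

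**Figure D3:**
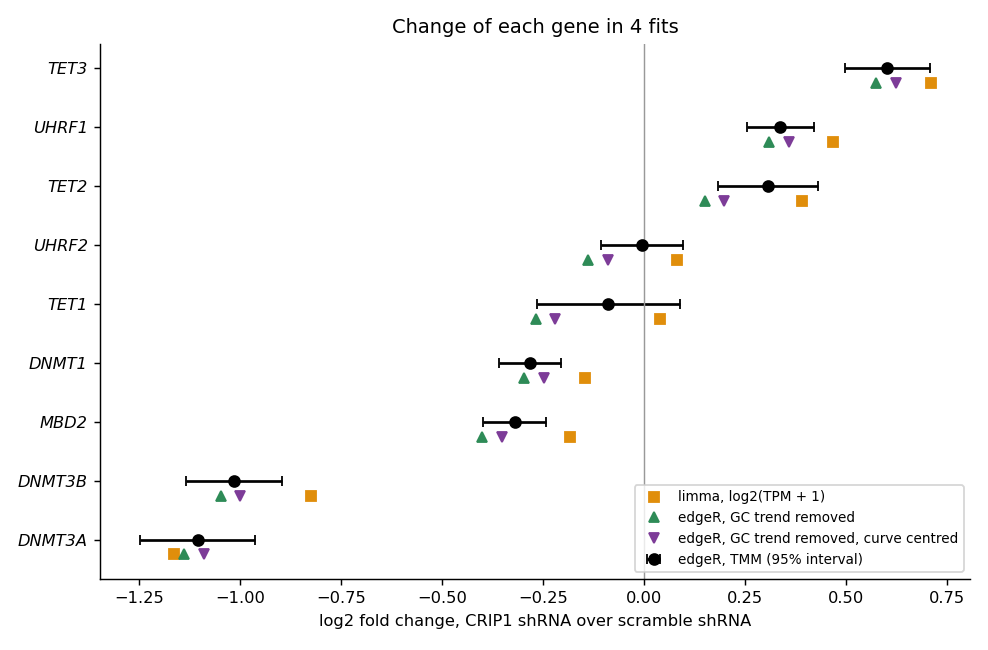
Log2 fold change, CRIP1 shRNA over scramble (x axis), of each gene, with the edgeR estimate and its 95% interval in black and 3 alternative fits as coloured points. DNMT3A and DNMT3B lie near -1, TET3 near 0.6, and for UHRF2 and TET1 the fits fall on both sides of 0.

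Within the DNMT family the share of the de novo enzymes was lower after CRIP1 shRNA. DNMT3A made up 4.69%, 4.07% and 4.89% of the summed DNMT TPM after CRIP1 shRNA, against 9.39%, 9.15% and 8.57% in scramble. DNMT3B made up 8.41%, 8.33% and 8.21% after CRIP1 shRNA, against 12.3%, 12.3% and 12.8% in scramble. The rest was DNMT1, at 87.1% ± 0.407 after CRIP1 shRNA and 78.5% ± 0.169 in scramble (SD, n = 3 each). Shares within a family do not depend on library scaling, but shares of TPM do depend on gene length. The implied length of DNMT3A differed by a ratio of 1.25, so these shares carry that difference as well as the one in counts. Each of the share differences exceeded the spread within groups (exact two-sided permutation p = 0.1 for each). The summed DNMT level was 133 ± 3.93 TPM after CRIP1 shRNA and 164 ± 4.31 TPM in scramble (SD, n = 3 each).

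The summed level of the TET genes was higher after CRIP1 shRNA, with TET3 in the lead. TET3 (NCBI gene 200424, chromosome 2, 73986404 to 74108176) had 25.40, 23.06 and 25.32 TPM after CRIP1 shRNA, against 16.15, 14.12 and 13.73 TPM in scramble. The lowest CRIP1 shRNA value lay well above the highest scramble value. The rise was 1.52-fold (interval 1.41 to 1.63; log2 fold change 0.60, SE 0.05, edgeR adjusted p = 9.37e-10). TET2 (NCBI gene 54790, chromosome 4, 105145875 to 105279816), the family member most often mutated in blood cancers, had 8.59, 8.79 and 8.98 TPM after CRIP1 shRNA, against 6.23, 6.07 and 7.12 TPM in scramble. The groups did not overlap, and scramble replicate 3 was the nearest to the other group. TET2 rose by 1.24-fold (interval 1.14 to 1.35; log2 fold change 0.31, SE 0.06, edgeR adjusted p = 8.43e-05). With the GC trend removed its log2 fold change was 0.15, and it was still called (adjusted p = 0.0188).

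TET1, the member with a high level in embryonic stem cells, was the lowest of the 9 genes in both groups. TET1 (NCBI gene 80312, chromosome 10, 68560656 to 68694482) had 1.86, 1.76 and 1.62 TPM after CRIP1 shRNA, against 1.83, 1.59 and 1.6 TPM in scramble, values that overlapped. They rested on 209 to 236 and 218 to 220 estimated counts per library. Its log2 fold change was -0.09, with a 95% interval of -0.26 to 0.09 (edgeR adjusted p = 0.345), and it was called lower once the GC trend was removed, at -0.27, or -0.22 with the curve centred so that its level was kept. The summed TET level was 35.1 ± 1.31 TPM after CRIP1 shRNA and 22.8 ± 1.26 TPM in scramble (SD, n = 3 each). TET3 held 68.6% to 70.9% of that sum after CRIP1 shRNA and 61.2% to 66.7% in scramble, with no overlap. TET2 held 24.0% to 26.2% after CRIP1 shRNA and 25.7% to 31.7% in scramble, with overlap, and the difference of -3.40 percentage points was -1.76 without scramble replicate 3. TET1 held 4.51% to 5.24% after CRIP1 shRNA and 7.13% to 7.56% in scramble, with no overlap. Set against the writers, the summed TET level was 0.264 ± 0.0173 of the summed DNMT level after CRIP1 shRNA and 0.139 ± 0.00476 in scramble (SD, n = 3 each; exact two-sided permutation p = 0.1).

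**Figure D4:**
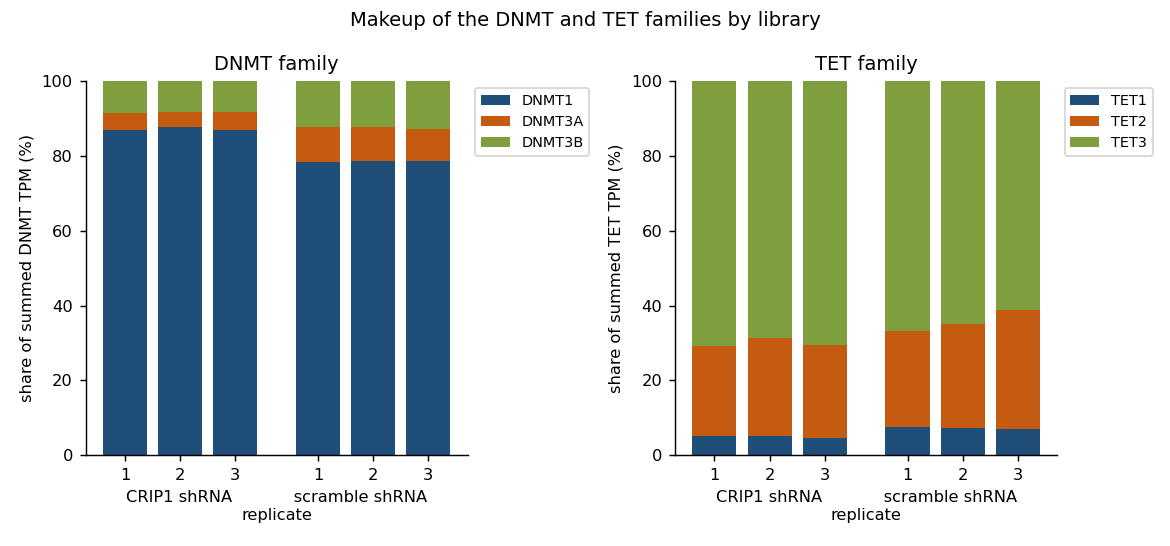
Share in percent (y axis) of each gene in the summed TPM of the DNMT family and of the TET family, with one bar per library, CRIP1 shRNA at the left and scramble at the right of each panel. DNMT1 takes 86.9% to 87.6% of the DNMT sum in the CRIP1 shRNA bars and 78.3% to 78.7% in the scramble bars, and TET3 the larger share of the TET sum in all 6.

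The order of the 9 genes by TPM differed in its middle. DNMT1, MBD2, UHRF1 and UHRF2 were the highest in both groups, in that order, and TET1 the lowest. After CRIP1 shRNA they were followed by TET3, DNMT3B, TET2 and DNMT3A, and the one pair of neighbours whose values overlapped was MBD2 and UHRF1. In scramble they were followed by DNMT3B, DNMT3A, TET3 and TET2, and the one overlapping pair was DNMT3A and TET3. TET3 was thus level with DNMT3A in scramble, whereas after CRIP1 shRNA it exceeded DNMT3A and DNMT3B combined by a ratio of 1.44 ± 0.0738, against 0.416 ± 0.0279 in scramble (SD, n = 3 each). DNMT1 was higher than 91.5% of all genes in the table after CRIP1 shRNA and 92.8% in scramble, and DNMT3A higher than 49.1% and 61.9%.

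MBD2, the reader among the 9 genes, fell slightly, and most genes of its complex fell with it. MBD2 (NCBI gene 8932, chromosome 18, 54151601 to 54224788) had 104.38, 103.63 and 98.89 TPM after CRIP1 shRNA, against 111.85, 116.94 and 120.07 TPM in scramble. The groups did not overlap, and the change was 1.25-fold lower (interval 1.18 to 1.32; log2 fold change -0.32, SE 0.04, edgeR adjusted p = 1.10e-07). Here and in the lists that follow, genes said to rise or fall had an edgeR adjusted p below 0.05. Over all genes tested 39.4% rose and 38.1% fell, the shares to set beside each count. Of 12 NuRD genes, 10 fell and 1 rose, with a median log2 fold change of -0.40 beside 0.01 for all genes, where 38.1% fell. On log2(TPM + 1) 7 fell and 1 rose, and with the GC trend removed 10 fell and 1 rose. The remodeller CHD3 had 11.79, 11.75 and 11.99 TPM after CRIP1 shRNA, against 28.12, 25.84 and 27.13 TPM in scramble (log2 fold change -1.33, SE 0.05). MTA2, a scaffold of the complex, fell by 0.91 (SE 0.04) on the log2 scale and GATAD2A, which links MBD2 to the remodeller, by 0.97 (SE 0.05). The GATAD2A relative GATAD2B, named after its value was seen, was the gene that rose (log2 fold change 0.30, SE 0.04). Of 9 genes listed as other methyl-CpG readers, a wider set than the proteins that bind methylated CpG, 5 rose and 3 fell (median 0.26). In the GC-adjusted fit the counts were 3 and 3. The glycosylase MBD4 rose by 0.50 (SE 0.04), and the zinc finger reader ZBTB38 fell by 0.63 (SE 0.03) on the log2 scale.

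Of 15 tested cofactors of the writers, 4 rose and 6 fell, with a median of -0.06. Over all genes tested 39.4% rose and 38.1% fell, so going both ways was not particular to the cofactors. PCNA, the sliding clamp to which DNMT1 binds, had 661.5, 671.69 and 638.77 TPM after CRIP1 shRNA, against 377.63, 383.00 and 395.12 TPM in scramble (log2 fold change 0.63, SE 0.04). USP7, a deubiquitinase that binds DNMT1 and UHRF1, had 136.75, 132.10 and 134.74 TPM after CRIP1 shRNA, against 188.16, 186.54 and 190.49 TPM in scramble (-0.62, SE 0.03). EHMT2, a histone methyltransferase, fell by 0.89 (SE 0.04). DNMT3L, the catalytically inactive DNMT3 cofactor of germ cells, named after its value was seen, was below the filter, with 1 count over the CRIP1 shRNA libraries and 15 over the scramble libraries.

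Genes around the TET enzymes included larger changes. Of 8 TET partners and regulators, 4 rose and 2 fell (median 0.12), or 4 and 4 with the GC trend removed. Beside this list and those that follow here, 39.4% of all genes tested rose and 38.1% fell in the main fit. CXXC5, a zinc finger protein that binds unmethylated CpG, fell by 1.55 (SE 0.06) on the log2 scale, the ubiquitin ligase receptor DCAF1 fell by 0.56 (SE 0.06), and QSER1, described as a guard against DNMT3 action at some promoters, rose by 0.56 (SE 0.05). Of 12 enzymes of 2-oxoglutarate and 2-hydroxyglutarate, 3 rose and 4 fell (median 0.06), or 7 and 4 on log2(TPM + 1). IDH1, which makes 2-oxoglutarate in the cytosol, had 271.93, 264.85 and 268.29 TPM after CRIP1 shRNA, against 66.22, 65.27 and 72.21 TPM in scramble. That is a log2 fold change of 1.86 (SE 0.04), while the mitochondrial subunit IDH3A fell by 0.61 (SE 0.04) and OGDH rose by 0.56 (SE 0.04). Of 13 genes listed for base excision, a wider set than the removal of oxidised methylcytosine, 5 rose and 4 fell (median 0.09). On log2(TPM + 1) the counts were 9 and 4, and in the GC-adjusted fit 3 and 4. PARP1 fell by 0.83 (SE 0.03), the uracil glycosylase UNG fell by 0.73 (SE 0.04) and NEIL3 rose by 0.36 (SE 0.04). TDG, named after its value was seen, fell by 0.27 (SE 0.04).

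For the supply of S-adenosylmethionine, the methyl donor of the DNMT enzymes, 4 of 10 tested genes were higher and 5 lower (median -0.06). Over all genes tested 39.4% were higher and 38.1% lower, so a split was not particular to this list. On log2(TPM + 1) the counts were 5 and 3. MAT2A, which makes the donor, rose by 0.86 (SE 0.04), while AHCY, which clears the product of methyl transfer, fell by 0.81 (SE 0.04), and its relative AHCYL2 fell by 0.95 (SE 0.04).

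**Figure D5:**
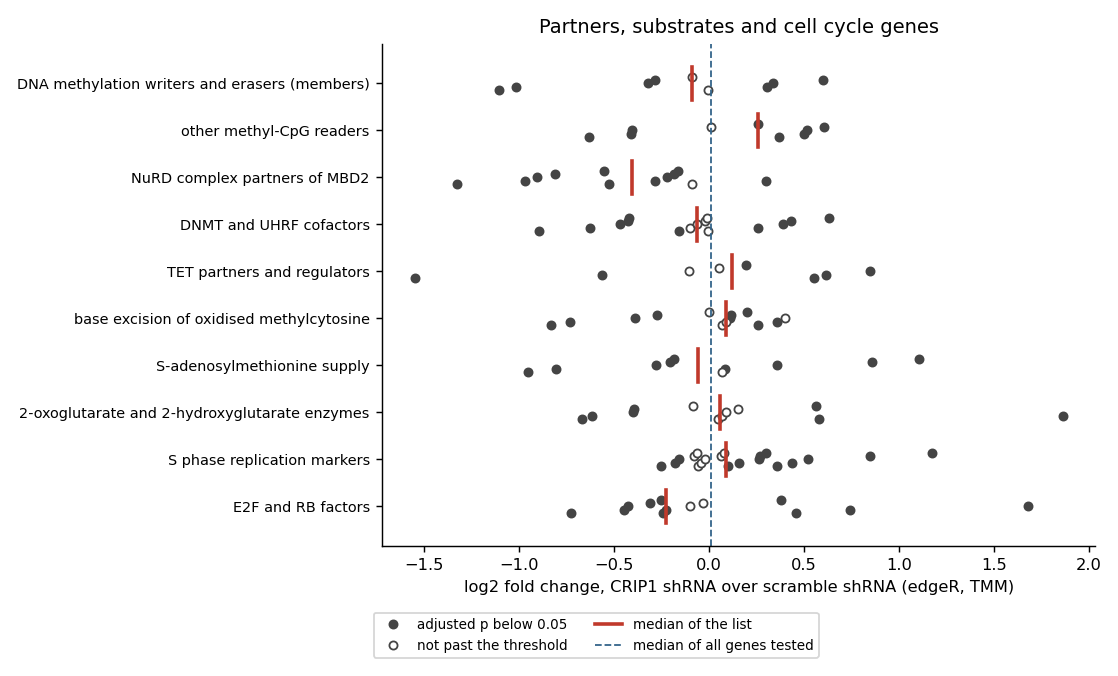
Log2 fold change (x axis) of each tested gene in 10 lists (y axis), filled where the adjusted p was below 0.05, with the median of each list in red and that of all genes tested as a dashed line. The NuRD list has its median at -0.40 and the other lists theirs between -0.22 and 0.26.

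DNMT1 and UHRF1 are normally expressed with the replication program in S phase, so that program was set beside them. Of 20 replication genes, 10 rose, 3 fell and 7 were not called, with a median of 0.09. Over all genes tested 39.4% rose and 38.1% fell. On log2(TPM + 1) 12 rose and 0 fell, and in the GC-adjusted fit 8 and 5. RRM2, a ribonucleotide reductase subunit, rose by 1.17 (SE 0.03), the primase PRIM1 by 0.85 (SE 0.04) and the helicase subunit MCM2 by 0.36 (SE 0.04). Those that fell, named after their values were seen, were GINS2 (-0.25, SE 0.05), RFC4 (-0.18, SE 0.04) and TYMS (-0.16, SE 0.04). UHRF1 rose and DNMT1 fell, and the replication genes themselves had no single direction. A link between that program and the pair was not tested. Of 13 E2F and RB factors, which govern that program, 4 rose and 7 fell (median -0.22), among them E2F7 (log2 fold change 1.68, SE 0.07), RBL1 (0.74, SE 0.04) and E2F1 (-0.73, SE 0.04).

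A list of 20 germline genes that are commonly methylated at their promoters in somatic cells was mostly at low levels in both groups. Of 16 such genes with a row in the deposited data a single one was tested, TEX14, which fell by 1.74 on the log2 scale (SE 0.30, edgeR adjusted p = 2.07e-05) at 0.187 TPM after CRIP1 shRNA and 0.570 TPM in scramble. The summed level of the 16 was 2.47 to 2.87 TPM after CRIP1 shRNA and 1.57 to 2.14 TPM in scramble, opposite in direction to TEX14. The filter left the other listed genes without a test, so the test of TEX14 gives no direction for the list. Below the filter, and named after their values were seen, SOHLH2 had 31 counts over the CRIP1 shRNA libraries and 1 over the scramble libraries, and MAEL had 25 and 2. Others of the list, also named after their values were seen, had like counts in both groups. SYCP3 had 20 and 28, TDRD6 had 14 and 12, and HORMAD1 had 7 and 6. Germline genes outside the list were not counted as a set. Those named next were picked after their values were seen, for having no counts in scramble, and do not stand for germline genes in general. GTSF1, a factor of small RNA silencing in germ cells, had 27.92, 24.68 and 28.63 TPM after CRIP1 shRNA and was at 0 in all 3 scramble libraries. MAGEA12, a cancer-testis gene, had 4.98, 4.41 and 5.06 TPM after CRIP1 shRNA and was likewise at 0 in scramble. No DNA methylation was measured, so the levels of these transcripts carry no value for methylation at any site.

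The genes nearest in pattern over the 6 libraries, by distance between log2 CPM (depth-scaled count) after subtraction of each gene's scramble mean, were MSN and TRIM8 for DNMT3B, SCN3A and SLC5A3 for DNMT3A, and ANKS1A and RAB3GAP1 for TET3. For UHRF1 they were LONP1 and USP36, for DNMT1 TBC1D2B and ARHGAP23, for TET2 DLG5 and NEMP2, and for MBD2 ATG3 and RIPK1. The distances ran from 0.0270 for MSN to 0.0812 for RAB3GAP1, over 6 libraries in 2 groups. No strand setting is given in the sources used here. Reads of UHRF2, TET2 and TET3 may therefore include some from genes annotated on the opposite strand within their spans (AL133480.1, TET2-AS1 and AC110801.1). On the same strand, reads may be shared where S1PR2 overlaps DNMT1 or where the pseudogenes COX20P1 and RPS3AP37 lie within TET1. Whole gene spans were compared and not exons, so whether any reads were shared was not tested. UHRF2P1 and TET1P1 are annotated pseudogenes, with which reads could be shared.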

How the data were processed

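Total RNA of 6 KMS11 libraries was sequenced after a SMARTer mRNA kit, per the labels. Groups and replicate numbers came from the titles. The deposited table gives an estimated count, an FPKM and a TPM value per gene and library, per the file headers. Deposited counts are estimates, so-called expected counts, of which 87.4% were whole. HISAT2 2.1.0, Bowtie2 2.2.5, RSEM 1.2.8 and GRCh38.p13 are named in the submitters' processing notes, without roles. No source used here names the annotation.

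Counts were rounded, filtered with filterByExpr at a minimum count of 10, scaled by TMM and fitted with edgeR 4.0.16 (quasi-likelihood, group only, R 4.3.3). Changes are CRIP1 shRNA minus scramble. Their SE was taken as the absolute change divided by the root of the F statistic. Adjustment was by Benjamini-Hochberg over 12612 genes. Implied length is count over FPKM and library total. Locations, transcripts and GC content came from GENCODE 29, promoter sequences from RefSeq. The common biological coefficient of variation, the spread between libraries of a group beyond counting noise, was 3.33%. Within a group, libraries differed beyond sampling noise (mean chi-square per gene 1.62 to 4.15, against 99.3 to 104 between groups). The members and lists were chosen with earlier results of these data known. Named are the 9 genes, CRIP1, USP7, and in each list the 3 genes of smallest adjusted p and the largest called change. Some genes that this rule picks are not reported here, and genes outside it are marked as named after their values were seen. For each called member, the 2 genes nearest in pattern are also named. Alternatives were other scalings and filters, the DESeq2 1.42.0 Wald test, limma 3.58.1 on log2(TPM + 1), log2(TPM + 0.1) and log2(FPKM + 1), a GC offset, a replicate block and leaving out each library. A GC offset with its curve centred was added after the data were seen.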

Additional observations from a re-analysis of the deposited data

How the results depend on the processing

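The 7 called genes kept their direction and their call in all 17 alternative fits, with log2 fold changes of -1.28 to -1.04 for DNMT3A, -1.05 to -0.82 for DNMT3B, -0.32 to -0.14 for DNMT1, -0.40 to -0.18 for MBD2, 0.55 to 0.74 for TET3, 0.15 to 0.44 for TET2 and 0.31 to 0.47 for UHRF1. UHRF2 took the other sign under upper quartile scaling (0.0383), a minimum of 50 counts (0.00898), log2(TPM + 1) (0.0805), log2(TPM + 0.1) (0.0824) and log2(FPKM + 1) (0.0342), ran from -0.0413 to 0.0316 with single libraries left out, and was called lower with the GC trend removed (-0.14, edgeR adjusted p = 0.00679) but not with its curve centred (-0.0890, adjusted p = 0.0720). TET1 took the other sign on log2(TPM + 1) (0.0393), log2(TPM + 0.1) (0.0591) and log2(FPKM + 1) (0.00745), ran from -0.119 to -0.0410 with single libraries left out, and was called lower with the GC trend removed (-0.27) and with its curve centred (-0.22). The cause was not tested. GC content was known for 99.5% of the tested genes. With single libraries left out, the called genes ranged from 9457 to 9786, and the share differences of DNMT3A from -4.72 to -4.24, DNMT3B from -4.24 to -3.99, TET3 from 4.21 to 6.99 and UHRF1 from 5.25 to 6.53 percentage points. That of TET2 ranged from -4.75 to -1.76, the last without scramble replicate 3, beside -3.40 with all libraries. Same-numbered libraries did not deviate together (correlations 0.05, -0.01 and -0.01), so these values gave no sign of pairing by number. Whether same-numbered libraries were handled together cannot be told from them. With the replicate block 9816 genes were called, and no call among the 9 genes differed. List medians moved as follows, where other readers stands for the wider set listed under that name. On log2(TPM + 1) they were 0.21 for other readers, -0.27 for NuRD, 0.0258 for DNMT and UHRF cofactors, 0.25 for TET partners, 0.23 for base excision with 9 higher, 0.0577 for methyl donor supply with 3 lower, 0.17 for 2-oxoglutarate enzymes with 7 higher, 0.22 for S phase with 0 lower and -0.0714 for E2F factors with 4 lower. With the GC trend removed they were 0.0296 for other readers with 3 higher, -0.46 for NuRD, -0.10 for cofactors, -0.0130 for TET partners with 4 lower, -0.13 for methyl donor supply, -0.0929 for 2-oxoglutarate enzymes and 0.0247 for S phase with 5 lower, and base excision had 3 higher. With the GC curve centred they were 0.0783 for other readers, 0.0357 for TET partners, 0.12 for base excision, -0.0442 for 2-oxoglutarate enzymes and -0.17 for E2F factors. The germline list, with 1 gene tested (TEX14), was at -1.79 with the GC trend removed and -1.74 with the curve centred. On log2(TPM + 1) no gene of that list was tested. DNMT3B fell short of 2-fold in 7 of the 17 fits. TET1, at 209 to 236 counts per library, is the member measured with the least depth.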
